A study of Mus musculus with 9 samples.

Results

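The 9 genes of megakaryocytes and platelets described here were measured in mouse bone marrow cells carrying a NUP98-CDX1 or NUP98-CDX4 fusion or the control EGFP. They are Pf4, Ppbp, Gp9, Gp1bb, F10, Itga2b, Itgb3, Cd9 and Plek, and they were chosen by symbol, taking every probe that the platform annotation assigns to them. The choice was made with earlier results of these data known. This gave 9 genes with 11 probes, of 19057 named genes and 45281 probes on the array. Ppbp and Itga2b had more than 1 probe. Tests were limited to probes called present (detection p below 0.05) by 3 or more of the 9 arrays, which held for 7 of the 9 genes, and 10018 named genes were tested in all. Gp1bb and Itgb3 did not meet that filter.

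Megakaryocytes are the large bone marrow cells that shed platelets. Their surface carries the glycoprotein Ib-IX-V complex, which holds platelets to von Willebrand factor at a wound, and the integrin alpha-IIb beta-3, which binds fibrinogen and links platelets to each other. Their alpha granules store the CXC chemokines platelet factor 4 and pro-platelet basic protein, and activated platelets offer the membrane on which coagulation factor Xa makes thrombin. Several of these genes are also read in other marrow cells: the integrin alpha-IIb chain in early progenitors and mast cells, pleckstrin and Cd9 in many blood cells, and factor X in macrophages.

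The study compared lines overexpressing each fusion with lines overexpressing EGFP, on 3 arrays per group. The donor animals were C57/B6 mice, 6 to 8 weeks old, treated with 5-FU, a drug that kills dividing cells, so all 3 groups share that treatment. After transfection with a fusion or with EGFP the marrow cells grew in IMDM containing 2% serum plus IL-6 and stem cell factor, and thrombopoietin, the main growth factor of megakaryocytes, is not listed. Each fusion joins NUP98, a nuclear pore protein, to the caudal-type homeobox factor CDX1 or CDX4. The labels do not say whether the arrays of a group came from separate cultures or animals, nor whether the cells were sorted, so the p-values measure only the spread between these arrays.

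Values are log2 intensities after background correction and quantile normalization. They can be compared between arrays for 1 probe but not between probes. Each array detected 17257 to 19300 of the 45281 probes. Among probes detected on no array, the signals split the arrays into a dimmer set (replicate 3 of EGFP, replicates 1 and 2 of NUP98-CDX1, replicate 2 of NUP98-CDX4) and a brighter set (the other 5), each of which holds all 3 groups. EGFP and NUP98-CDX4 each have a single array in the dimmer set, and NUP98-CDX1 has a single array in the brighter set. A difference within such a set thus rests on a single array of that group. The labels name no batch. Day numbers in the column names were 17 or 20 for NUP98-CDX4, 21 for the EGFP arrays and 28 for those of NUP98-CDX1, so day and group cannot be told apart. Xist, the RNA of the inactive X chromosome, was detected on 3 arrays (the first of NUP98-CDX1, the first and second of NUP98-CDX4), and the Y-linked Eif2s3y was detected on the other 6. EGFP had 0 arrays of the first kind and each fusion had both kinds, so this pattern cannot be fully told apart from group. Within each fusion the arrays thus did not all come from animals of the same sex, though the labels give no sex. Calls that were lost without those 3 arrays are named. That fit leaves NUP98-CDX4 with replicate 3 alone, assumed to vary like the other groups.

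Of 14 genes listed as defining markers of megakaryocytes and platelets, 12 had a probe and 11 were detected on at least 1 array. Pf4, Gp9, Itga2b, Gp5 and Selp were detected on all 9 arrays, Ppbp on 8 and Vwf on 7. Itgb3 and Tubb1, the platelet-specific beta-1 tubulin, were each detected on 2 arrays, Gp1bb and Clec1b on 1 each, and Gp6, the collagen receptor, on 0. Part of the list was thus measurable in every group, and part lay at or near the detection limit. In bulk RNA, fewer cells of a type and less RNA per cell cannot be told apart.

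The 250 bases before the start of Ppbp, F10 and Gp9 are printed because these were the genes called against EGFP, and those of Pf4 because it is the neighbour of Ppbp. In the RefSeq gene table Ppbp and Pf4 stand next to each other on chromosome 5, between Cxcl5 and Cxcl3. The sequences are from RefSeq on build GRCm38.p6, all on the plus strand, at chr5:90768268-90768517 for Ppbp, chr5:90772185-90772434 for Pf4, chr8:13037058-13037307 for F10 and chr6:87777820-87778069 for Gp9. Capitals mark the ETS word GGAAG, which reads CTTCC when it lies on the other strand, and the CDX word TTTATNG.
Ppbp: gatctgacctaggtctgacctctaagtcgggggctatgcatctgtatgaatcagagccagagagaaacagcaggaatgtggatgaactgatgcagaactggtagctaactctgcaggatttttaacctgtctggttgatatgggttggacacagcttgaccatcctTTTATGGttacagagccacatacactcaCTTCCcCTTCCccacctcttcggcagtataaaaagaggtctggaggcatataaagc
Pf4: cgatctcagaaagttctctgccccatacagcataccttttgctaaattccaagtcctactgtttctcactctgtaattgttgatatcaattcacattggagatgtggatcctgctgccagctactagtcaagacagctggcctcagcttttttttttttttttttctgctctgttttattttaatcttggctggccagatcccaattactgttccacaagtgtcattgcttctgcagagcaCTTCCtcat
F10: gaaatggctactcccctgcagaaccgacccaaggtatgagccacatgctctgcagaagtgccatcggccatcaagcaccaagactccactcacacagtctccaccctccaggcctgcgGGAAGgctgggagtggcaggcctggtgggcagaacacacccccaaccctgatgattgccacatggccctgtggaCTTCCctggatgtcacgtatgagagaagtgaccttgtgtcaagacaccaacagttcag
Gp9: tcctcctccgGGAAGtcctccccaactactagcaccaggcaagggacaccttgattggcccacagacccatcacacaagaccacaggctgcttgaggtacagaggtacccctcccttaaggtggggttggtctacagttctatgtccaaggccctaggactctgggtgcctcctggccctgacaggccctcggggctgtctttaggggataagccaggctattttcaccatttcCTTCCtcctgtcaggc

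A window was found for 8 of the 9 genes, all but Itgb3. Words were searched on both strands, and no match overlapped another in the 4 printed windows. The GATA words (AGATAA or AGATAG or TGATAA or TGATAG), which erythroid and megakaryocytic GATA factors bind, were found in 1 of the 8 windows (Gp1bb), against 26.5% of all 32851 RefSeq windows of that length. GGAAG, the core word of ETS factors such as FLI1, was found in 7 of 8, against 64.1% of all windows. TTTATNG was found in 2 of 8, against 9.81% of all windows. Its matches were at -84 to -78 from the Ppbp start, and in the Plek window at -197 to -191. These counts describe letters in a window and say nothing of what binds there.

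With NUP98-CDX4, 3 of the 7 measured genes passed the test against EGFP: Ppbp and F10 fell and Gp9 rose. In that comparison 611 of 10018 named genes were called, 6.1%, with 2.74% higher and 3.36% lower. With NUP98-CDX1, 0 of the 7 genes were called, where 1.23% of all named genes were called by limma (0.729% higher, 0.499% lower) and 11.8% had an unadjusted p under 0.05. At that unadjusted level Ppbp, Gp9 and Cd9 also differed in NUP98-CDX1. Between the fusions 0 of 7 were called, against 0.18% of all named genes (0.0399% higher, 0.14% lower), and 7.25% of all named genes had an unadjusted p under 0.05, as did F10 and Itga2b. With the array set as a block the counts were 2 of 7 in NUP98-CDX1 (6.18% of all named genes), 4 of 7 in NUP98-CDX4 (18.3%) and 0 of 7 between the fusions (1.68%). Both comparisons with EGFP use the same 3 EGFP arrays. Since the genes were picked with earlier results known, their counts beside these shares are a description and no test of the set.

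**Figure D1:**
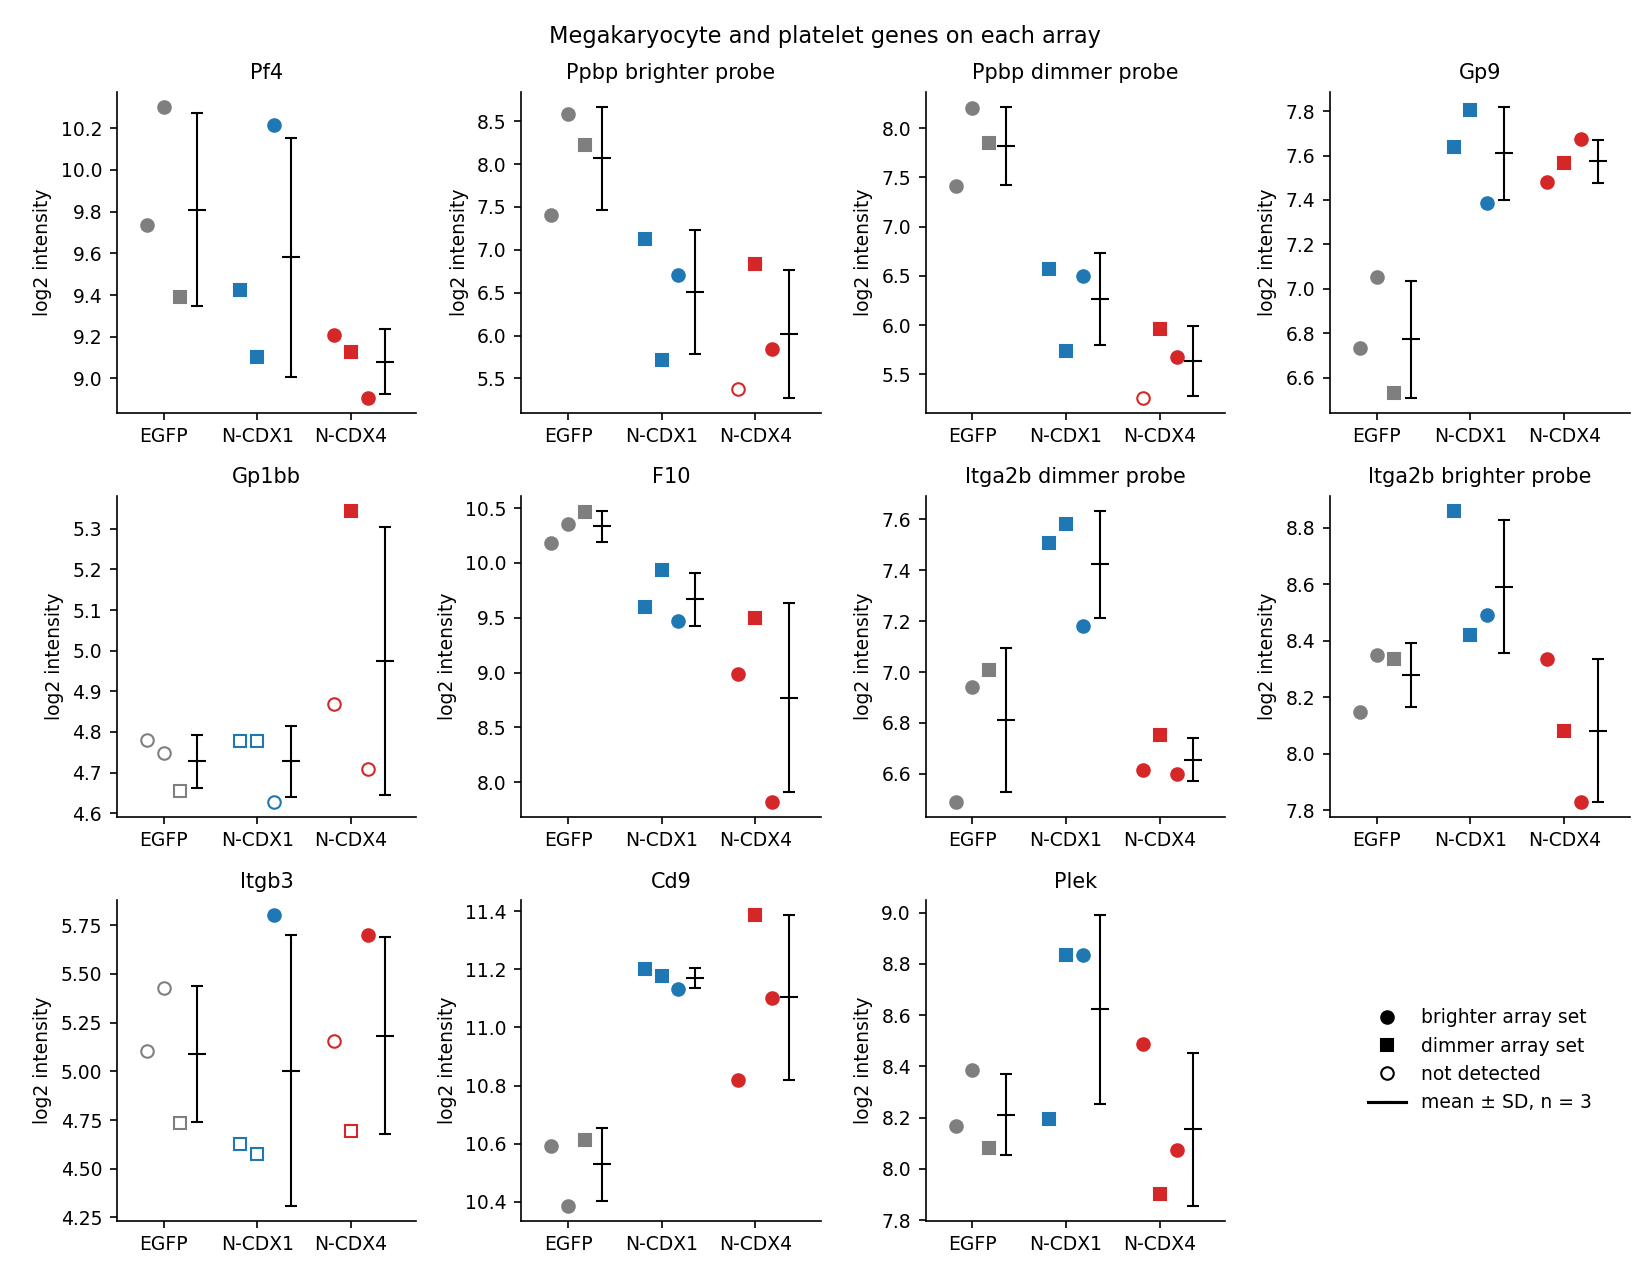
Log2 intensity of each of the 11 probes on each of the 9 arrays (y axis, own scale per panel), by group (x axis, N-CDX1 and N-CDX4 for the fusions). Circles are the brighter and squares the dimmer array set, open symbols are probes not detected on that array, and bars give mean ± SD with n = 3. Both Ppbp probes and F10 lie lower in all 6 fusion arrays than in the 3 EGFP arrays, while Gp9 and Cd9 lie higher.

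Ppbp encodes the granule protein that is cut to the neutrophil attractant NAP-2. Its brighter probe read 7.40, 8.58 and 8.22 in the EGFP arrays, 7.12, 5.71 and 6.70 with NUP98-CDX1, and 5.37, 6.84 and 5.84 with NUP98-CDX4. Every fusion array lay below every EGFP array, the ranges of the fusions overlapped, and the lowest NUP98-CDX4 array was not detected. With NUP98-CDX4 the mean fell from 8.07 ± 0.60 to 6.02 ± 0.75 (SD, n = 3), a 4.14-fold lower intensity (log2 difference -2.05, 95% interval -3.11 to -0.99, limma adjusted p = 0.0379). This was the 103rd largest negative difference of the 10018 genes. With NUP98-CDX1 the mean was 6.51 ± 0.72, a log2 difference of -1.56 (interval -2.62 to -0.50) that did not pass (adjusted p = 0.199).

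The dimmer Ppbp probe read 7.41, 8.20 and 7.85 with EGFP, 6.57, 5.73 and 6.50 with NUP98-CDX1 and 5.26, 5.96 and 5.68 with NUP98-CDX4. It showed the same separation of both fusions from EGFP, with the same NUP98-CDX4 array not detected. When every probe was tested as its own feature, this probe was 4.56-fold lower with NUP98-CDX4 (log2 difference -2.19, adjusted p = 0.00297). It was 2.94-fold lower with NUP98-CDX1 (log2 difference -1.55, interval -2.21 to -0.90, adjusted p = 0.0470). Within an array the brighter minus the dimmer probe ran from -0.02 to 0.87 on the log2 scale, highest in NUP98-CDX4 replicate 2.

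The Ppbp call of the brighter probe in NUP98-CDX4 was lost when EGFP replicate 2 or 3 or NUP98-CDX4 replicate 1 or 3 was left out (adjusted p from 0.100 to 0.152), and without the 3 Xist arrays (log2 difference -2.23, adjusted p = 0.164). Its log2 difference was -2.38 within the brighter and -1.38 within the dimmer array set, the latter from a single array per group.

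Pf4 encodes platelet factor 4, a heparin-binding chemokine and the textbook megakaryocyte marker. It read 9.74, 10.30 and 9.39 in EGFP, 9.42, 9.10 and 10.22 in NUP98-CDX1 and 9.21, 9.13 and 8.91 in NUP98-CDX4. The 3 NUP98-CDX4 arrays lay below all EGFP arrays, whereas the NUP98-CDX1 arrays spanned nearly the EGFP range. The log2 difference with NUP98-CDX4 was -0.73 (interval -1.42 to -0.03), with an unadjusted p of 0.0416 and an adjusted p of 0.287, so it did not pass. It was -0.96 within the brighter and -0.26 within the dimmer array set. With NUP98-CDX1 the difference was -0.23 (interval -0.92 to 0.47, adjusted p = 0.805). Its sign turned within the brighter set (0.20), where replicate 3 alone stood for NUP98-CDX1.

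Gp9 encodes glycoprotein IX, the small subunit that the receptor for von Willebrand factor needs to reach the surface. It read 6.73, 7.05 and 6.53 in EGFP, 7.64, 7.80 and 7.39 in NUP98-CDX1 and 7.48, 7.57 and 7.67 in NUP98-CDX4. All 6 fusion arrays lay above all EGFP arrays, and the fusions overlapped each other. With NUP98-CDX4 the level rose 1.74-fold, from 6.77 ± 0.26 to 7.57 ± 0.10 (log2 difference 0.80, interval 0.40 to 1.20, adjusted p = 0.0332), the 318th largest positive difference. With NUP98-CDX1 the mean was 7.61 ± 0.21 and the difference 0.84 (interval 0.44 to 1.24, adjusted p = 0.0722), which passed only with the array set as a block (adjusted p = 0.0221).

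The fusions differed from each other in Gp9 by -0.04 (interval -0.44 to 0.37, adjusted p = 0.963). The Gp9 call in NUP98-CDX4 was lost when EGFP replicate 1 or 3, NUP98-CDX1 replicate 1 or any NUP98-CDX4 array was left out (adjusted p from 0.0588 to 0.124), and without the 3 Xist arrays (log2 difference 0.90, adjusted p = 0.401). Within the array sets the NUP98-CDX4 difference was 0.68 and 1.04, and the NUP98-CDX1 difference was 0.49 and 1.19, brighter set first.

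Gp1bb encodes the beta chain of glycoprotein Ib in the same complex. It read 4.78, 4.75 and 4.66 in EGFP, 4.78, 4.78 and 4.63 in NUP98-CDX1 and 4.87, 5.34 and 4.71 in NUP98-CDX4. Only NUP98-CDX4 replicate 2 was detected, and it stood above the other 8 arrays. The probe was left out by the detection filter. Without that filter its log2 difference with NUP98-CDX4 was 0.25 (adjusted p = 0.885).

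Itga2b encodes the alpha-IIb chain, the partner of the beta-3 chain in the fibrinogen receptor. Its brighter probe read 8.15, 8.35 and 8.34 in EGFP, 8.86, 8.42 and 8.49 in NUP98-CDX1 and 8.34, 8.08 and 7.83 in NUP98-CDX4. The NUP98-CDX1 arrays were the highest and the NUP98-CDX4 arrays overlapped EGFP. Against EGFP the log2 difference was 0.31 with NUP98-CDX1 (interval -0.10 to 0.72, adjusted p = 0.590) and -0.20 with NUP98-CDX4 (interval -0.61 to 0.21, adjusted p = 0.792). Neither passed.

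The dimmer Itga2b probe read 6.49, 6.94 and 7.01 in EGFP, 7.51, 7.58 and 7.18 in NUP98-CDX1 and 6.61, 6.75 and 6.60 in NUP98-CDX4. Again the NUP98-CDX1 arrays stood above all others, and the NUP98-CDX4 arrays lay inside the EGFP range. Tested as its own feature, the probe differed by 0.61 between NUP98-CDX1 and EGFP (adjusted p = 0.219). Between the fusions it differed by -0.77 (interval -1.18 to -0.35, unadjusted p = 0.00217, adjusted p = 0.207). The brighter probe differed by -0.51 between the fusions (interval -0.92 to -0.10, adjusted p = 0.519). With the array set as a block the dimmer probe passed (log2 difference -0.68, adjusted p = 0.0497). Itga2b was the only 1 of the 7 genes whose fusion groups did not overlap, a separation found for 10.5% of all named genes.

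Itgb3, the beta-3 chain, read 5.10, 5.43 and 4.73 in EGFP, 4.63, 4.58 and 5.80 in NUP98-CDX1 and 5.15, 4.69 and 5.70 in NUP98-CDX4. It was detected only on NUP98-CDX1 replicate 3 and NUP98-CDX4 replicate 3, both of the brighter array set. The groups overlapped. The probe was left out by the detection filter, and without that filter its log2 difference was -0.09 with NUP98-CDX1 (adjusted p = 0.974) and 0.09 with NUP98-CDX4.

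F10 encodes coagulation factor X, made mainly in liver, which as factor Xa turns prothrombin into thrombin. It read 10.19, 10.35 and 10.47 in EGFP, 9.60, 9.94 and 9.47 in NUP98-CDX1 and 8.99, 9.50 and 7.82 in NUP98-CDX4. Both fusions lay below EGFP on every array, overlapped each other, and NUP98-CDX4 replicate 3 was the lowest of the 9. With NUP98-CDX4 the mean fell 2.96-fold, from 10.33 ± 0.14 to 8.77 ± 0.86 (log2 difference -1.57, interval -2.38 to -0.75, adjusted p = 0.0393). With NUP98-CDX1 it was 9.67 ± 0.24, a difference of -0.67 (interval -1.48 to 0.15, adjusted p = 0.559). The fusions differed by -0.90 (unadjusted p = 0.0345, adjusted p = 0.638).

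The F10 call in NUP98-CDX4 was lost when any EGFP array, NUP98-CDX1 replicate 1 or 2, or NUP98-CDX4 replicate 1 was left out (adjusted p from 0.0589 to 0.132). It held without the lowest array, NUP98-CDX4 replicate 3, where the difference was -1.09 with an adjusted p of 0.0403. Without the 3 Xist arrays that replicate alone stood for NUP98-CDX4, and the difference was -2.52 (adjusted p = 0.0144). The array sets gave -1.87 (brighter) and -0.97 (dimmer). Markers of other cell types that moved with F10 are given below.

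Cd9 encodes a tetraspanin of platelets, megakaryocytes and many other cells, which gathers integrins in the membrane. It read 10.59, 10.39 and 10.61 in EGFP, 11.20, 11.18 and 11.13 in NUP98-CDX1 and 10.82, 11.39 and 11.10 in NUP98-CDX4. Both fusions lay above EGFP on every array, and the NUP98-CDX1 arrays were within 0.07 of each other. The difference was 0.64 with NUP98-CDX1 (1.56-fold, interval 0.26 to 1.02, adjusted p = 0.129) and 0.57 with NUP98-CDX4 (1.49-fold, interval 0.20 to 0.95, adjusted p = 0.0947), so neither passed. With the array set as a block both passed, with adjusted p of 0.0360 and 0.0131. The fusions differed by -0.07 (interval -0.44 to 0.31, adjusted p = 0.929).

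Plek encodes pleckstrin, the main substrate of protein kinase C in platelets. It read 8.17, 8.39 and 8.08 in EGFP, 8.20, 8.84 and 8.84 in NUP98-CDX1 and 8.49, 7.90 and 8.08 in NUP98-CDX4. All groups overlapped EGFP. The difference was 0.41 with NUP98-CDX1 (interval -0.09 to 0.91, adjusted p = 0.558) and -0.06 with NUP98-CDX4 (interval -0.56 to 0.45, adjusted p = 0.978).

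The genes did not move as 1 block, but they were picked with earlier results of these data known. Their mixed directions and the counts that follow are thus a description and no test of the set. With NUP98-CDX4, 5 of the 7 measured genes had arrays that did not overlap EGFP, 3 of them lower (Ppbp, Pf4, F10) and 2 higher (Gp9, Cd9), where 22.5% of all named genes did not overlap. With NUP98-CDX1 it was also 5, Ppbp and F10 lower and Gp9, Cd9 and Itga2b higher, where 16.3% did not overlap. The neighbours Ppbp and Pf4 had log2 differences of -2.05 and -0.73 with NUP98-CDX4, and -1.56 and -0.23 with NUP98-CDX1. Their intervals overlapped in both comparisons, and the genes were not tested against each other. The paired receptor genes Gp9 and Gp1bb could not be compared, since Gp1bb was not detected on 8 of 9 arrays. The same holds for Itga2b and Itgb3, with Itgb3 not detected on 7.

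**Figure D2:**
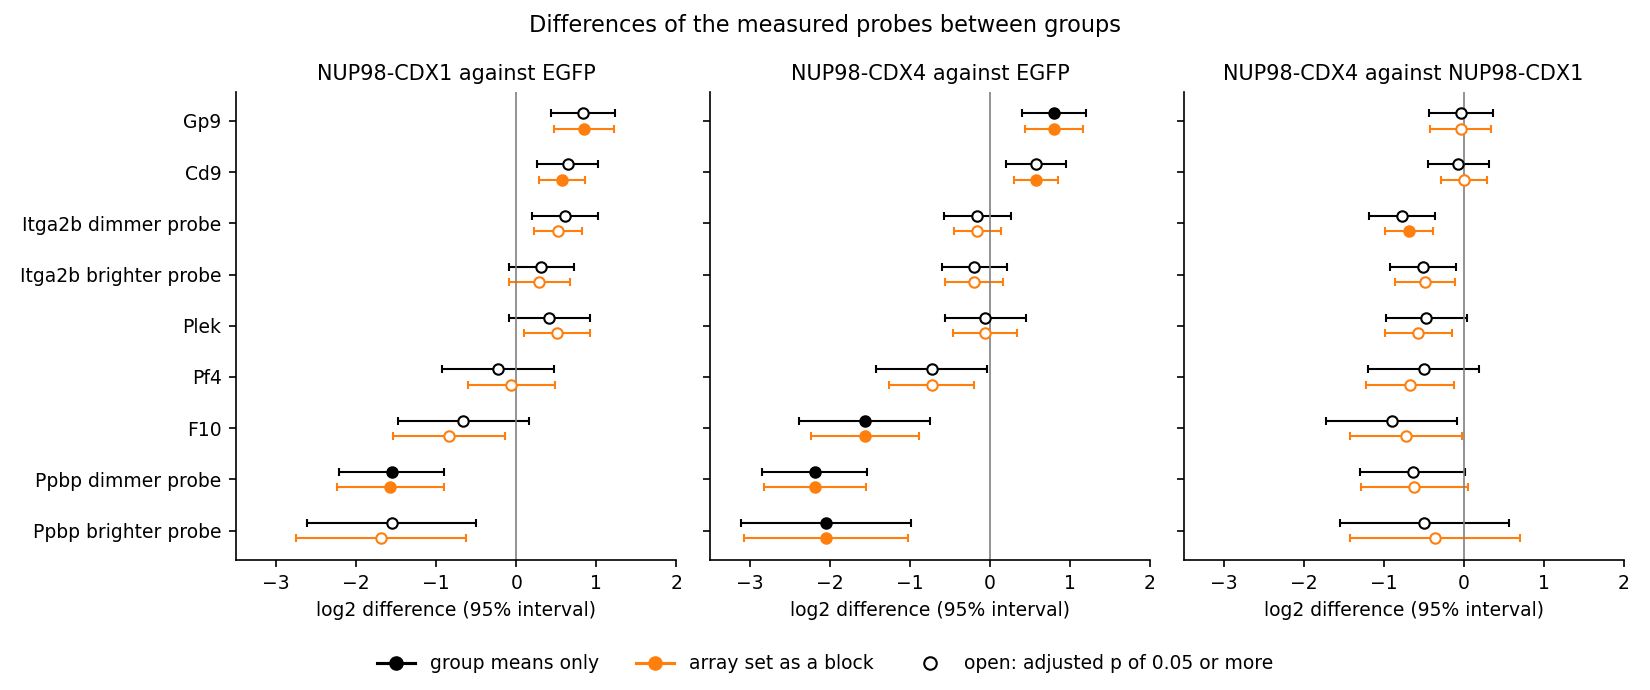
Log2 difference (x axis) with its 95% interval for the 9 probes that met the detection filter, in the 3 comparisons. Black uses group means alone and orange adds the array set as a block, and filled symbols have an adjusted p under 0.05. Intervals for Ppbp, Pf4 and F10 lie below 0 and those for Gp9 and Cd9 above 0 in NUP98-CDX4, and in the third panel Gp9 and Cd9 are centred near 0.

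Of 21 further platelet receptors and surface proteins, 11 were measured. With NUP98-CDX4, 2 rose and 0 fell, and with NUP98-CDX1 0 were called. The median log2 difference was 0.48 with NUP98-CDX1 and 0.06 with NUP98-CDX4, against 0.03 for all named genes in both. Over 24 settings the first ran from 0.29 to 0.59, and the second from -0.39 to 0.47 with its sign turned in 4. The summed level was 2766 to 3229 in EGFP, 3681 to 4507 in NUP98-CDX1 and 2976 to 3865 in NUP98-CDX4. NUP98-CDX1 thus lay above EGFP, and NUP98-CDX4 overlapped both. In the lists that follow, medians are given for NUP98-CDX1 first. Tbxa2r, the thromboxane A2 receptor, was detected on 0 of 3 EGFP arrays, 2 of 3 NUP98-CDX1 arrays and 3 of 3 NUP98-CDX4 arrays, at least 2.71-fold higher in the last (means 6.80 ± 0.84 against 4.84 ± 0.15, adjusted p = 0.0151). F2rl3, the thrombin receptor PAR4, rose 1.65-fold with NUP98-CDX4 (log2 difference 0.72, adjusted p = 0.0379) and differed by 0.75 with NUP98-CDX1 (adjusted p = 0.0784). Treml1, a receptor of platelet granules, was detected on 2, 2 and 0 arrays of EGFP, NUP98-CDX1 and NUP98-CDX4 (difference -0.48 with NUP98-CDX4, adjusted p = 0.171). The Tbxa2r call was lost without EGFP replicate 1 or 2 (adjusted p up to 0.0608), and the gene met the detection filter only through fusion arrays. The F2rl3 call was lost without any EGFP or NUP98-CDX4 array or NUP98-CDX1 replicate 1 (adjusted p up to 0.142). Both were also lost without the 3 Xist arrays (adjusted p = 0.158 for Tbxa2r and 0.373 for F2rl3).

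Of 17 further granule genes 10 were measured, with medians of 0.09 and -0.18, and 1 was called, higher with NUP98-CDX4. It was Angpt1, a vascular growth factor (log2 difference 0.72, adjusted p = 0.0393), and its other probe differed by 0.07 (adjusted p = 0.994). The call was lost on leaving out any single array but NUP98-CDX1 replicate 3, and without the 3 Xist arrays (adjusted p = 0.682). Thbs1, which encodes thrombospondin 1, differed by -0.94 (adjusted p = 0.235), and F5, factor V, by -0.64 (adjusted p = 0.193).

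Among 17 transcription regulators of the megakaryocyte programme 15 were measured, with medians of 0.25 and 0.22, and Gata1 was detected on 0 arrays. Gfi1b, a repressor needed for megakaryocytes and red cells, rose 2.02-fold with NUP98-CDX1 (7.86 ± 0.17 to 8.87 ± 0.27, adjusted p = 0.0314) and 2.95-fold with NUP98-CDX4 (9.42 ± 0.12, adjusted p = 0.00128). It was the only regulator of the list called in either comparison. The NUP98-CDX1 call was lost on leaving out any EGFP or NUP98-CDX1 array, or NUP98-CDX4 replicate 1 (adjusted p from 0.0562 to 0.139), and without the Xist arrays, whereas the NUP98-CDX4 call held on leaving out each single array and was lost without the 3 Xist arrays (log2 difference 1.44, adjusted p = 0.0662). Its other probe differed by 0.77 (adjusted p = 0.524) and 1.69 (adjusted p = 0.0333). Lmo2, a bridging protein of the GATA and TAL1 complex, differed by 0.62 with NUP98-CDX4 (adjusted p = 0.0518), and its partner Ldb1 by 0.48 (adjusted p = 0.137).

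For signalling and cytoskeleton genes 14 of 22 were measured, with medians of -0.08 and -0.11. Mylk, the myosin light chain kinase, rose 2.52-fold with NUP98-CDX4 (adjusted p = 0.0226), a call lost without EGFP replicate 2 or 3 or NUP98-CDX4 replicate 1, and without the 3 Xist arrays (adjusted p = 0.396). The other 13 did not pass: Fermt3, kindlin-3 of integrin activation, differed by -0.34 (adjusted p = 0.232), and Lat, an adaptor under the collagen receptor, by -0.67 (adjusted p = 0.111) with detection on 0 NUP98-CDX4 arrays.

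The family lists gave few calls. Of 20 other coagulation genes 9 were measured and 0 were called in either comparison, with medians of -0.43 and 0.22. The second median had no stable sign: it ran from -0.72 to 0.22 over 24 settings and was below 0 in 5, among them those without EGFP replicate 3 or without NUP98-CDX4 replicate 1. Pros1, protein S, was nearest, with log2 differences of -1.31 with NUP98-CDX1 (adjusted p = 0.106) and -1.17 with NUP98-CDX4 (adjusted p = 0.0773), and F7, factor VII, differed by -1.07 with NUP98-CDX4 (adjusted p = 0.332). Vkorc1, which recycles vitamin K for the gamma-carboxylation of factor X, differed by 0.41 and 0.22 (adjusted p = 0.502 and 0.786).

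Of 12 other CXC chemokines 4 were measured and 0 were called, with medians of -0.29 and -0.90. Cxcl2 was detected on 3 of 3 NUP98-CDX1 arrays and on 0 arrays of the other groups, at least 2.03-fold above EGFP, and it met the detection filter only through those 3 arrays. Cxcl16 differed by -1.81 (adjusted p = 0.0921) with NUP98-CDX4, against -0.30 for its other probe, and Cxcl10 by -1.92 (adjusted p = 0.183), while the other Cxcl10 probe passed at -1.48 (adjusted p = 0.00915). Cxcl3, next to Pf4, was detected on 0 arrays.

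Of 17 other integrin subunits 10 were measured and 0 were called, with medians of 0.03 and -0.00. The signs of these medians turned in 7 and 5 of 24 settings. Itga1 differed by -1.04 with NUP98-CDX4 (adjusted p = 0.0879). Itgal differed by 0.73 (adjusted p = 0.290) and Itgb5 by -0.79 (adjusted p = 0.368) with NUP98-CDX1. Of 18 other tetraspanins 13 were measured (medians 0.17 and 0.09), and 2 rose with NUP98-CDX4: Cd81 by 0.65 (1.57-fold, adjusted p = 0.0215) and Tspan17 by 1.53 (2.90-fold, adjusted p = 0.00823), whose other probe did not pass (0.78, adjusted p = 0.175). The Cd81 call was lost without any of the 3 EGFP arrays, or NUP98-CDX4 replicate 1 or 3. Without the 3 Xist arrays both were lost (adjusted p = 0.446 for Cd81, and 0.158 for Tspan17 at a log2 difference of 1.53). Cd151 differed by 0.52 (adjusted p = 0.111).

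**Figure D3:**
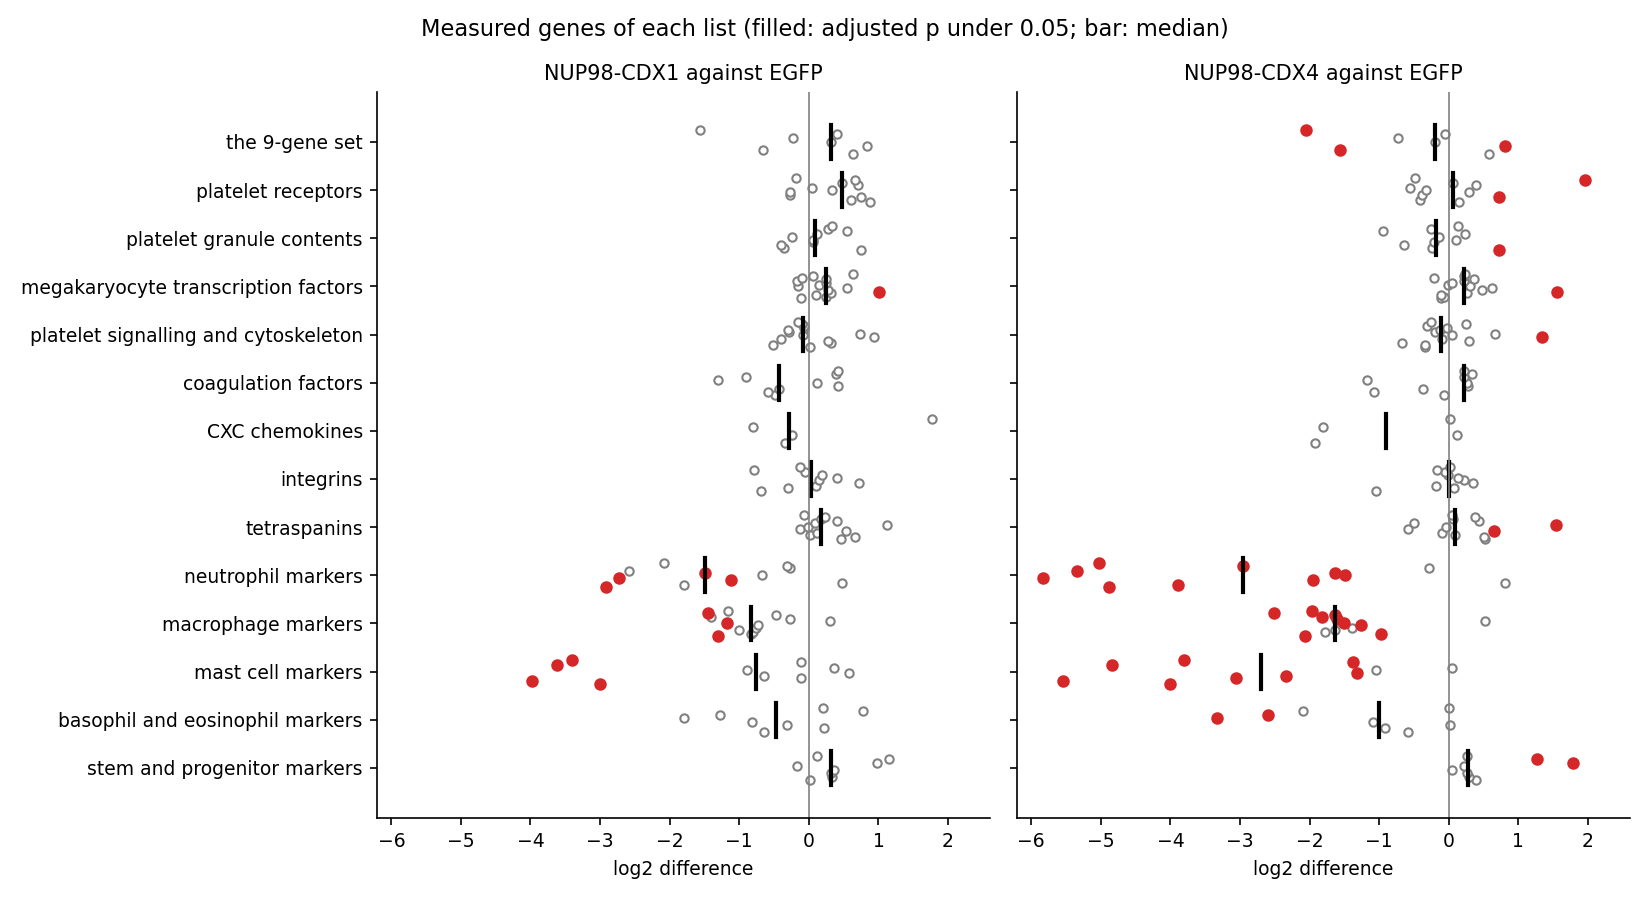
Log2 difference against EGFP (x axis) of every measured gene of 14 lists (y axis), with NUP98-CDX1 left and NUP98-CDX4 right. Filled points have an adjusted p under 0.05 and bars are list medians. The platelet lists have isolated calls and lie around 0, except the receptors in NUP98-CDX1 (median 0.48, 8 of 11 positive). The neutrophil, macrophage and mast cell lists lie mostly below 0 (medians -2.96, -1.63 and -2.70 in NUP98-CDX4).

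Markers of other marrow cells moved with the groups. Neutrophil markers fell for 9 of 11 measured genes with NUP98-CDX4 (median -2.96) and for 4 with NUP98-CDX1 (median -1.50), counts that ran from 6 to 9 and from 0 to 6 over 24 alternative settings. Camp, the cathelicidin of neutrophil granules, was 29.4-fold lower with NUP98-CDX4 (adjusted p = 1.31e-05) and 7.51-fold lower with NUP98-CDX1 (adjusted p = 0.000594). Summed over the list, the intensity was 67225 to 76607 in EGFP, 35238 to 41217 in NUP98-CDX1 and 6186 to 14506 in NUP98-CDX4. The 3 groups did not overlap. Between the fusions 1 neutrophil and 2 mast cell markers were called lower with NUP98-CDX4, and 0 genes of any other list.

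Macrophage markers fell for 9 of 13 genes with NUP98-CDX4 (median -1.63) and for 3 with NUP98-CDX1 (median -0.84). Over the 24 alternative settings these counts ran from 3 to 12 and from 0 to 11, with 11 in NUP98-CDX1 when the array set was a block. Adgre1, which encodes F4/80, was 4.18-fold lower with NUP98-CDX4 (adjusted p = 0.00104) and 2.46-fold lower with NUP98-CDX1 (adjusted p = 0.0281), the latter call lost without any EGFP or NUP98-CDX1 array or without the 3 Xist arrays (adjusted p from 0.0515 to 0.138 for single arrays). The summed level was 33726 to 42591 in EGFP, 21519 to 34138 in NUP98-CDX1 and 8596 to 20148 in NUP98-CDX4. F10, Ppbp and Pf4 stood in the same order of group means as these sums. The part of neutrophils or macrophages in their differences was not tested.

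Mast cell markers fell for 8 of 10 genes with NUP98-CDX4 (median -2.70) and for 4 with NUP98-CDX1 (median -0.77), with ranges of 6 to 9 and 1 to 4 over the settings. The chymases Cma1, Cma2 and Mcpt4 fell in both, and were detected on 0 NUP98-CDX4 arrays, with Cma2 at least 28.2-fold below EGFP (adjusted p = 1.26e-05). The summed level was 13452 to 21158 in EGFP, 14480 to 22359 in NUP98-CDX1 and 6609 to 8705 in NUP98-CDX4, so EGFP and NUP98-CDX1 overlapped. Of 8 measured basophil and eosinophil genes 2 fell with NUP98-CDX4 (median -1.01, 1 to 6 over the settings), Prg2 10.1-fold (adjusted p = 0.0110, lost without EGFP replicate 2) and Prg3 6.04-fold (adjusted p = 0.00133), and 0 were called with NUP98-CDX1 (median -0.48). That sum was 5786 to 9572 in EGFP, 2729 to 4025 in NUP98-CDX1 and 961 to 1978 in NUP98-CDX4.

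Stem and progenitor genes had mostly positive differences, with few calls. Of 8 measured, 7 had a positive log2 difference with NUP98-CDX1 (median 0.32) and 8 with NUP98-CDX4 (median 0.28). Past the threshold were 0 with NUP98-CDX1 and 2 with NUP98-CDX4. Over 24 settings these counts ran from 0 to 2 in both, and the medians from 0.07 to 0.62 and from 0.18 to 0.64. Kit, which is on the mast cell list too, counts among the positive genes (0.36 and 0.05, limma adjusted p = 0.586 and 0.980). Meis1, a homeobox cofactor of stem cells and megakaryocytes, rose 3.43-fold with NUP98-CDX4 (adjusted p = 0.00123) and differed 1.97-fold with NUP98-CDX1 (adjusted p = 0.0571). The NUP98-CDX4 call of Meis1 held on leaving out each single array and was lost without the 3 Xist arrays (log2 difference 1.72, adjusted p = 0.0754). Mllt3, a chromatin reader of stem cells, rose 2.40-fold with NUP98-CDX4 (adjusted p = 0.0152), a call lost without EGFP replicate 1 or 2, NUP98-CDX4 replicate 1 or the 3 Xist arrays, while 1 of its other probes did not pass (-0.10, adjusted p = 0.981). The summed level was 9506 to 10346 in EGFP, 11546 to 13696 in NUP98-CDX1 and 11856 to 14048 in NUP98-CDX4, so EGFP lay below both fusions, as it did for Gp9 and Cd9. Their part in the Gp9 and Cd9 values was not tested.

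Erythroid genes were measured for 4 of 12, with medians of 0.29 and 0.03. The sign of the second median turned in 6 of 24 settings. Car2, a carbonic anhydrase, rose by 1.32 on the log2 scale with NUP98-CDX4 (adjusted p = 0.0242), a call lost without EGFP replicate 1 or 3, NUP98-CDX4 replicate 1 or 2, or the 3 Xist arrays. Klf1 (0.01, adjusted p = 0.995) and Epor (0.04, adjusted p = 0.982) did not pass, and the alpha globin gene Hba-a1 was detected on 0 arrays. Of 10 endothelial and stromal genes 3 were measured, with medians of 0.33 and 0.14. Pecam1, also a platelet adhesion molecule, rose 1.53-fold with NUP98-CDX4 (adjusted p = 0.0382), a call lost on leaving out any single array but NUP98-CDX1 replicate 3, or the 3 Xist arrays together. Its other probes did not pass there (0.70, adjusted p = 0.0579, and 0.34, adjusted p = 0.779). The endothelial cadherin Cdh5 was detected on 0 arrays. Hepatocyte genes, listed because liver makes factor X, were measured for 0 of 6, with Alb, Ttr, Apoa1 and Ahsg detected on 0 arrays.

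**Figure D4:**
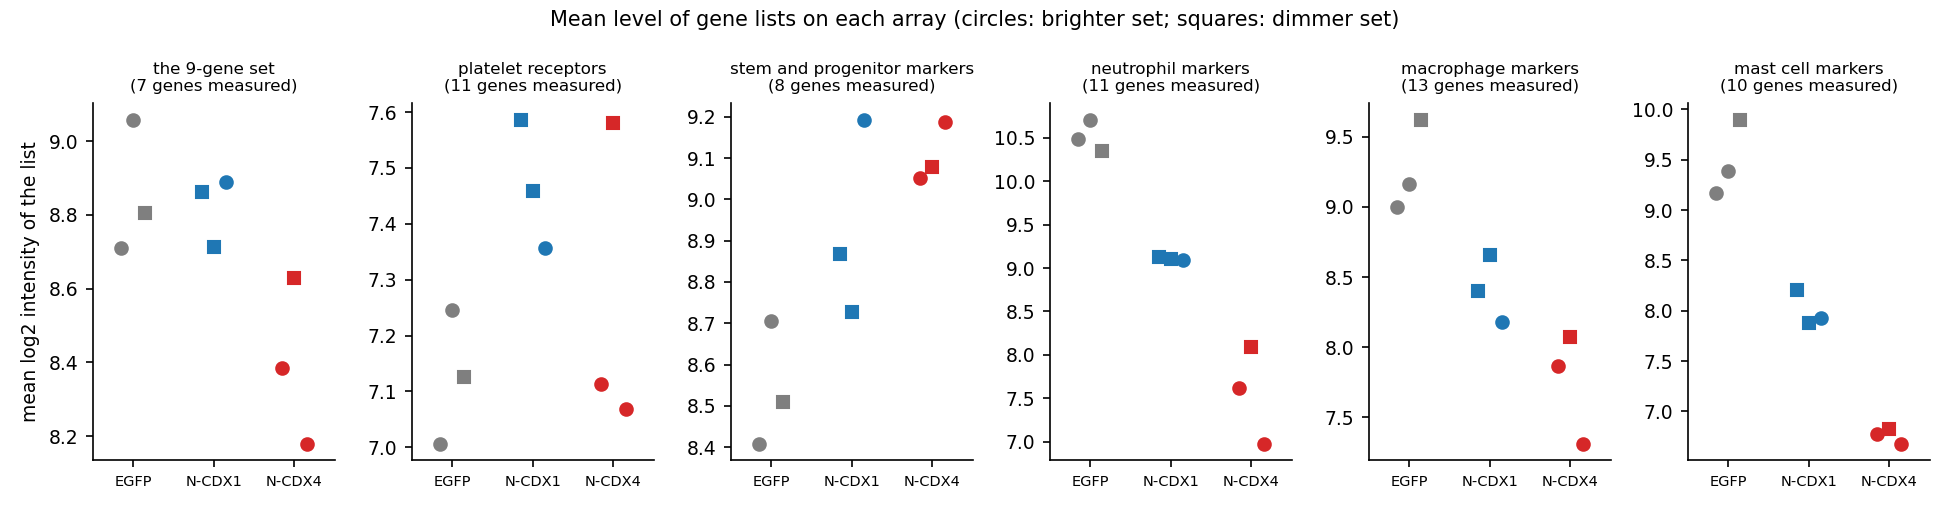
Mean log2 intensity of 6 gene lists (y axis, own scale per panel) on each array, by group (x axis). The 9-gene set is shown by its 7 measured genes, circles are the brighter and squares the dimmer array set. In mean log2 the neutrophil, macrophage and mast cell panels separate all 3 groups, whereas summed macrophage and mast cell levels overlap between EGFP and NUP98-CDX1. The set's own mean ran from 8.71 to 9.06 in EGFP, 8.71 to 8.89 in NUP98-CDX1 and 8.18 to 8.63 in NUP98-CDX4.

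The genes whose pattern over the 9 arrays was nearest to each called gene were found by the root mean square (RMS) difference of centred log2 values. That pattern holds the group differences, so similar differences of the nearest genes follow from the choice and are no separate evidence. Nearest to F10 were Mmp8, a neutrophil collagenase, at 0.194, Gpnmb, a glycoprotein of macrophages and other cells, at 0.208, and Oas1g, an interferon-induced synthetase, at 0.215. All 3 were called lower with NUP98-CDX4 (log2 differences -1.49, -1.55 and -1.70), and the Mmp8 call was lost without any EGFP array, NUP98-CDX4 replicate 1 or 3, or the 3 Xist arrays. Nearest to Gp9 were Pnkd (0.143), Tfdp2 (0.146) and Fam117a (0.150), all called higher with NUP98-CDX4 (0.88, 0.92 and 0.72). All 3 of these calls were lost without the Xist arrays, that of Fam117a also without any EGFP or NUP98-CDX4 array or NUP98-CDX1 replicate 1, and that of Pnkd without EGFP replicate 1 or NUP98-CDX4 replicate 3. Nearest to Ppbp were Pkd2l1 (0.401), Pdlim4 (0.437) and Ublcp1 (0.473), called lower with NUP98-CDX4 (-2.17, -1.88 and -1.85), with the Pdlim4 call lost without EGFP replicate 2 or NUP98-CDX4 replicate 3. The distances for Ppbp were larger, and the SD of Ppbp over the 9 arrays was 1.10 against 0.45 for Gp9 and 0.82 for F10.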

How the data were processed

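Total RNA of 9 bone marrow cell samples was labelled with biotin and hybridized to single-colour Illumina bead arrays. The intensity values are probe signals deposited by the authors without normalization, exported from GenomeStudio per the submitters' processing notes, with no version recorded. Detection p-values are the authors', as deposited. A processed intensity table that the authors deposited, with unstated normalization and column medians of 84.28 to 85.81, served as an alternative. Each of its columns matched its own raw column best (Spearman at least 0.991, at most 0.953 with others). It was not stated to be on a log scale, and its log2 was taken here.

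Background correction and quantile normalization used neqc (offset 16, limma 3.58.1, R 4.3.3, and version 1.17.8 of data.table). Of 45281 probes, 19472 passed the detection filter. Symbols came from the platform annotation: 34885 probes had 1 symbol, 18 several and 10378 none, and 0 were changed by the RefSeq genes. The brightest probe stood for a gene, giving 13160 features (10018 genes and 3142 probes without a symbol). The other probes of Ppbp and Itga2b were taken from a fit of all filtered probes.

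A single limma fit held all 9 arrays and estimated each group's mean, using moderated (empirical Bayes) variances. Benjamini-Hochberg adjustment ran over all features, with a threshold of 0.05. Alternatives were another offset, the authors' table, median-scaled raw signals, other filters and probe rules, other sample sets and blocks, and single arrays left out. The array sets came from the signals of 21684 undetected probes (Spearman 0.73 to 0.77 within the brighter set, 0.43 to 0.46 within the dimmer, 0.32 to 0.38 between), and entered as a block or were fitted alone. A fold against a group detected on 0 of 3 arrays is a lower bound, with each such array raised to its lowest detected signal. Precision is limited by the number of arrays. The steps were tested on simulated data with known changes. The simulated arrays had independent noise and no array sets, so they cannot show how the steps behave with such sets. From each list up to 3 measured genes with the smallest adjusted p against EGFP were named, and for each called gene the 3 nearest genes by pattern. The genes of the set, the lists and the tests were chosen with earlier results of these data known.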

Additional observations from a re-analysis of the deposited data

Results flagged for a closer look

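The dimmer Itga2b probe differed between the fusions by -0.77 on the log2 scale (NUP98-CDX4 minus NUP98-CDX1). All 3 NUP98-CDX1 arrays lay above the EGFP mean and all 3 NUP98-CDX4 arrays below it, which is why it is listed here. The difference itself was tested and did not pass over all probes (limma adjusted p = 0.207), and with the array set as a block it passed (adjusted p = 0.0497). The brighter probe of the gene differed by -0.51 in the same direction (adjusted p = 0.519), with 1 of 3 NUP98-CDX4 arrays above the EGFP mean.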

How the results depend on the processing

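With 3 arrays per group, the count of called genes of the set moved with single choices. In NUP98-CDX4 the 3 calls (Ppbp, Gp9, F10) became 1 without a detection filter (Gp9), 1 with only the 2 groups compared (Ppbp), 0 in the dimmer array set alone, 0 with a replicate block, 1 without the 3 Xist arrays (F10, an alternative chosen after seeing the data), and from 0 to 3 with single arrays left out. All 3 were lost without EGFP replicate 3 or NUP98-CDX4 replicate 1. In NUP98-CDX1 the count of 0 became 1 with every probe a feature, where a gene counts if any of its probes passes (the dimmer Ppbp probe, while the brighter had an adjusted p of 0.214), and 2 with the array set as a block (Gp9 and Cd9). Over 24 settings the log2 differences in NUP98-CDX4 kept their sign and ran from -2.46 to -1.38 for Ppbp (16 settings called), 0.52 to 1.04 for Gp9 (12) and -2.52 to -0.97 for F10 (14). Between the fusions the count stayed at 0 in all 24.

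Over all named genes, the 123 calls in NUP98-CDX1 became 619 with the array set as a block, 50 and 4 in the brighter and dimmer set alone, 31 with a replicate block, 26 without the Xist arrays, and 32 to 132 with single arrays left out. The 611 calls in NUP98-CDX4 became 1835, 896 (brighter set), 108 (dimmer set), 371 and 195 in the same order, with 41 higher and 154 lower in the last, and 288 to 626 with single arrays left out. The 18 calls between the fusions became 8 with raw signals scaled to an equal median, 8 without a detection filter, 3 with only the 2 groups compared, 168 with the array set block, 8 and 0 in the 2 sets, 1 with a replicate block, 9 without the Xist arrays, and 1 to 38 with single arrays left out. Same-numbered arrays deviated together in 3 of 9 pairs and apart in 6 (correlations from -0.79 to 0.67). The 3 pairs that deviated together joined arrays of the same array set, and the 6 others joined a brighter with a dimmer array. These correlations therefore cannot show whether the numbers pair the arrays, and the main fit did not pair them. The causes were not tested. Of the other named genes, 232 values crossed to the uncalled side and 79 to the called side, none with a turned sign. The neutrophil, macrophage and mast cell medians in NUP98-CDX4 stayed below 0 in all 24 settings.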
